A study of Mus musculus with 12 samples.

Results

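The transcripts of 10 genes of Notch signalling and secretory cell fate were followed in colonic crypts of mice that differ in CBP phosphorylation and in p53. The genes were chosen by name. They comprise the ligands Dll1, Dll4 and Jag1, the receptors Notch1, Notch2 and Notch3, the DNA-binding partner Rbpj, the target Hes1 and the secretory factors Atoh1 and Gfi1, and make up 10 of the 55471 genes listed. RNA-seq was performed on 12 libraries, 3 per group and each labelled as a biological replicate. The mice were C57BL/6J, and the methods give them as 8 weeks old and female. CBPWTp53-floxed mice carry wild-type CBP (the product of Crebbp) and floxed p53 alleles. CBPAAp53-floxed mice carry the same floxed alleles and a CBP in which serines phosphorylated by IKKα are replaced with alanines, a knock-in allele made in embryonic stem cells. The methods name differing strains for these cells and give backcrossing to C57BL/6 over 10 generations. In CBPWTp53ΔIEC and CBPAAp53ΔIEC mice the floxed alleles are removed by Villin-Cre, which is active throughout the intestinal epithelium, and the floxed controls have no Cre, so the effects of Cre and of p53 loss cannot be told apart. The CBPAA allele is present in all cells of the mouse, whereas p53 is lost in the epithelium alone.

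Notch signals pass between touching cells. A Delta or Jagged ligand on one cell binds a Notch receptor on its neighbour, γ-secretase releases the intracellular domain of the receptor, and this domain joins RBPJ, Mastermind and acetyltransferases such as CBP and p300 on target genes. In the crypt, HES1 represses Atoh1, so that cells with high Notch activity become absorptive, while cells that keep ATOH1 become secretory and present DLL1 and DLL4 to the cells around them. GFI1 acts downstream of ATOH1 and favours goblet and Paneth over enteroendocrine cells.

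Promoter sequences are given for both Delta ligands, for Nrarp, a Notch target that encodes a feedback inhibitor of the pathway and was called below, and for Atoh1, the most abundant of the 10 transcripts. Each line holds the 250 bases before the RefSeq start (GRCm38.p6), 5′ to 3′ on the strand of the gene, with matches to CACNAG, the N box bound by HES repressors, in capitals on either strand. Dll1 is read from the minus strand at chr17:15376933-15377182, Dll4 from the plus strand at chr2:119325534-119325783, Nrarp from the plus strand at chr2:25180508-25180757 and Atoh1 from the plus strand at chr6:64728875-64729124.
Dll1: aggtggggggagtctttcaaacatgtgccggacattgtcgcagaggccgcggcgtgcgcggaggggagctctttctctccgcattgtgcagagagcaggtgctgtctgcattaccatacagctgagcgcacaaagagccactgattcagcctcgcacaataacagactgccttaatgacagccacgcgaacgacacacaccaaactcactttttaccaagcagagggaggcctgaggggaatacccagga
Dll4: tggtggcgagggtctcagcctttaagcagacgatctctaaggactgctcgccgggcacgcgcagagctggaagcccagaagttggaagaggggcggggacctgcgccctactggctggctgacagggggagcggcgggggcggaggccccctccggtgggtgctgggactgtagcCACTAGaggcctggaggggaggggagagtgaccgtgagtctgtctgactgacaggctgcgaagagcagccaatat
Nrarp: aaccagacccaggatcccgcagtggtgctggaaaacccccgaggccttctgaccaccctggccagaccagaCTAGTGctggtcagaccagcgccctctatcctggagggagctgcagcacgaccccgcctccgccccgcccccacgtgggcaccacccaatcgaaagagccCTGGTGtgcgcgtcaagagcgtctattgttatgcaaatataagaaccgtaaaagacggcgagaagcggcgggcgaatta
Atoh1: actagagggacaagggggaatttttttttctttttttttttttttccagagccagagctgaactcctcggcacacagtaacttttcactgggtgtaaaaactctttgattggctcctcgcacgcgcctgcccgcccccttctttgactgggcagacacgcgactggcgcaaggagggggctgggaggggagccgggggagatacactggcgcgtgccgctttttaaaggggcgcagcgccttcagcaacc
The window of Dll4 holds 1 match, 75 bases before the start, that of Nrarp holds 2, at 179 and 79 bases, and those of Dll1 and Atoh1 hold none. The core of the RBPJ site, TGGGAA, was searched on both strands and is in none of these windows, and the 2 motifs share no bases in them. Of the 9 genes with an entry (Hes1 had none), 4 held CACNAG and 1, Rbpj, held TGGGAA. The RefSeq windows of Rbpj and of Notch1, which is among the 4, lie 124194 and 12841 bases from the GENCODE starts of these genes. Of 32851 promoters of the same length, 36.7% held CACNAG and 21.6% TGGGAA.

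Reads counted on genes numbered between 11177430 and 18029125 per library. Fold changes are from these counts, and levels are given as the deposited TPM, which are scaled to gene length and library. Trp53 TPM lay between 23.3 and 33.5 in the 6 floxed libraries and between 3.26 and 6.13 in the 6 ΔIEC libraries (the log2 fold change was -2.64 in CBPWT and -2.58 in CBPAA mice, with an SE of 0.22 and adjusted p of 0.000375 and 0.000401 from edgeR), in the direction the labels give. Libraries stood apart in transcripts foreign to the colon. Defa24, a Paneth cell defensin of the small intestine, was at 8290 TPM in CBPWTp53ΔIEC replicate 1, at 1913 and 1079 TPM in CBPAAp53ΔIEC replicates 3 and 1, at 471 TPM in CBPAAp53-floxed replicate 2, and at 23.1 TPM or less in the other 8. Olfm4, a Notch target of the small intestinal crypt base, was at 9.53 TPM or more in the same 4 libraries and at 4.45 TPM or less in the other 8. In addition, Xist was at 0.683 TPM in CBPAAp53-floxed replicate 1 and at 65.9 TPM or more in the other 11, while Ddx3y, Kdm5d and Uty were at 0 in all libraries. Fits without these libraries are given beside the results.

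By TPM, which allows levels of different genes to be compared, the secretory factor and its repressor led the set. Atoh1 averaged 140 ± 29.1 TPM and Hes1 84.3 ± 14.3 TPM (SD, n = 12 libraries). Dll4 (12.2), Gfi1 (11.2), Dll1 (9.61), Notch1 (7.28), Rbpj (6.54) and Jag1 (5.99) had mean TPM within a narrow band, and Notch2 (1.77) lay below it. Notch3 averaged 0.159 TPM from 1 to 10 reads per library, and was the only one of the 10 genes that did not pass edgeR's filter on low counts. The mean TPM was highest in CBPAAp53ΔIEC mice for 7 of the 10 genes and lowest in CBPAAp53-floxed mice for 8 of 10. When the 4 groups of each gene were ranked by mean TPM, the libraries of neighbouring groups overlapped in 29 of 30 cases, and the exception was Rbpj between CBPWTp53-floxed and CBPWTp53ΔIEC mice. Shares over all genes were not computed for these ranks and overlaps, so whether they are particular to the set was not tested.

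**Figure D1:**
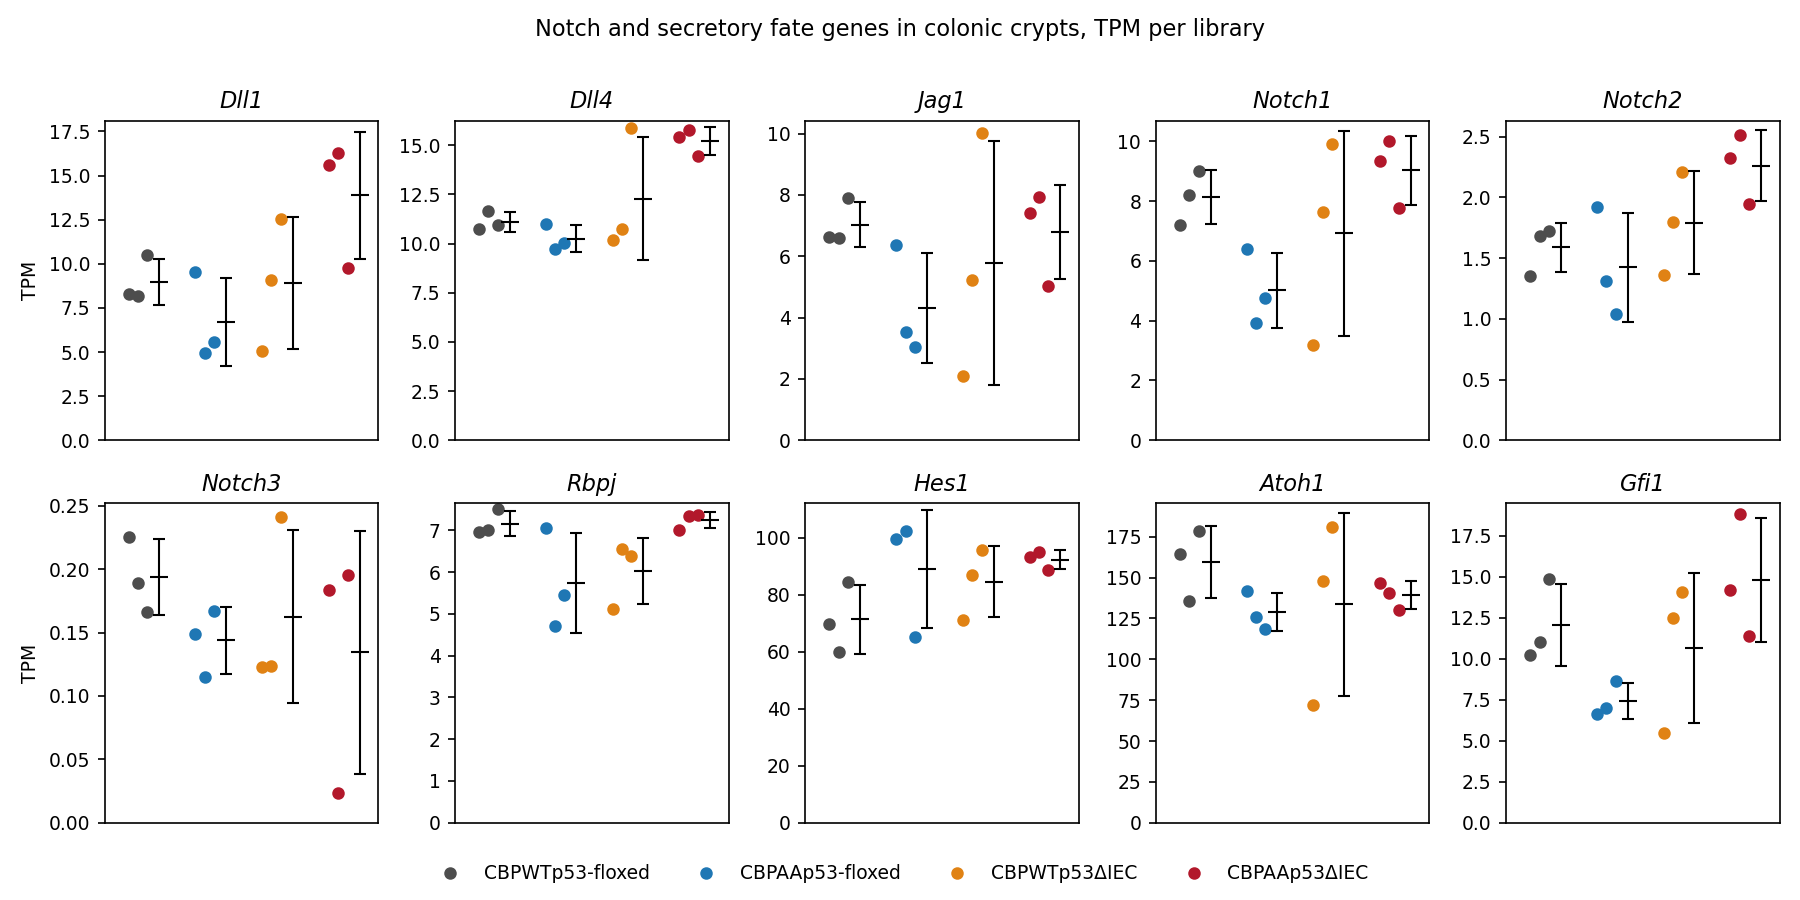
TPM (vertical axis, from 0) of each of the 10 genes in each library (points) by group, with the group mean and SD beside the points (n = 3). The red points of CBPAAp53ΔIEC mice lie above all blue points of CBPAAp53-floxed mice for Dll1, Dll4, Notch1, Notch2 and Gfi1, and the orange points of CBPWTp53ΔIEC mice are widely spread.

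Dll1, the ligand that early secretory cells present, had the largest difference in the set between CBPAAp53ΔIEC and CBPAAp53-floxed mice. Dll1 (ENSMUSG00000014773, chr17:15367354-15376872) was at 8.27, 8.18 and 10.5 TPM in CBPWTp53-floxed, at 9.53, 4.92 and 5.59 TPM in CBPAAp53-floxed, at 5.08, 9.07 and 12.5 TPM in CBPWTp53ΔIEC and at 15.6, 16.3 and 9.76 TPM in CBPAAp53ΔIEC libraries. Replicates 1 and 2 of CBPAAp53ΔIEC mice were the highest of the 12 libraries, and their group lay above CBPAAp53-floxed mice without overlap, although replicate 3 exceeded the highest floxed CBPAA library only slightly. The log2 fold change was 0.94 (SE 0.25, unadjusted p = 0.0021, adjusted p = 0.320 from edgeR's quasi-likelihood test, by Benjamini-Hochberg over 14610 genes). A gene is named called here where its adjusted p is under 0.05 and its log2 fold change beyond 0.5 in either direction, so Dll1 was not called. With DESeq2 the log2 fold change of Dll1 was 0.93 with an adjusted p of 0.0494, which passed, and without CBPAAp53ΔIEC replicate 3, one of the libraries high in Defa24, edgeR gave 1.13 with an adjusted p of 0.0363, where 2.19% of all genes were called. Without CBPAAp53-floxed replicate 1, the library low in Xist, the value was 1.18 with an adjusted p of 0.326. Between CBPAAp53ΔIEC and CBPWTp53ΔIEC mice the log2 fold change of Dll1 was 0.63 (SE 0.24, adjusted p = 0.985 from edgeR), and the libraries overlapped. In these bulk samples, fewer cells of a type and less RNA per cell cannot be told apart.

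Dll4, the second Delta ligand of crypt secretory cells, varied least among the ligands. Dll4 (ENSMUSG00000027314, chr2:119325784-119335962) was at 10.7, 11.7 and 10.9 TPM in CBPWTp53-floxed, at 11.0, 9.71 and 10.0 TPM in CBPAAp53-floxed, at 10.2, 10.8 and 15.9 TPM in CBPWTp53ΔIEC and at 15.4, 15.8 and 14.4 TPM in CBPAAp53ΔIEC libraries. The 3 CBPAAp53ΔIEC libraries and CBPWTp53ΔIEC replicate 3 were high, and the other 8 lay close together. The log2 fold change between CBPAAp53ΔIEC and CBPAAp53-floxed mice was 0.44 (SE 0.12, adjusted p = 0.320 from edgeR), against 0.16 (SE 0.12, adjusted p = 0.462) between CBPWTp53ΔIEC and CBPWTp53-floxed mice. For p53 deletion averaged over both CBP genotypes, Dll4 had the smallest adjusted p of the 10 genes, 0.0611 in edgeR, with a log2 fold change of 0.30 (SE 0.09). DESeq2 gave 0.29 with an adjusted p of 0.0410, which stayed under the fold cutoff. An overlapping gene on the opposite strand, Gm14207, held up to 177 reads in a library, and as the strand setting of the counting is not given in the sources used here, reads of the pair may not be separated.

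Jag1, a Jagged ligand, had the widest range of the 9 tested genes, with a highest TPM 4.75 times its lowest. Jag1 (ENSMUSG00000027276, chr2:137081456-137116644) was at 6.62, 6.60 and 7.89 TPM in CBPWTp53-floxed, at 6.38, 3.54 and 3.05 TPM in CBPAAp53-floxed, at 2.11, 5.22 and 10.0 TPM in CBPWTp53ΔIEC and at 7.42, 7.93 and 5.04 TPM in CBPAAp53ΔIEC libraries. The lowest and the highest of the 12 libraries were both CBPWTp53ΔIEC mice, and the lowest was the library with the most Defa24. CBPAAp53-floxed libraries lay below CBPWTp53-floxed libraries without overlap, but the log2 fold change of -0.61 had an SE of 0.35 (adjusted p = 0.649 from edgeR). Between CBPAAp53ΔIEC and CBPAAp53-floxed mice the log2 fold change was 0.55 (SE 0.35, adjusted p = 0.517), and the libraries overlapped.

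Notch1, the main receptor of crypt stem cells, was lower in CBPAAp53-floxed mice than in both groups it was compared with, although no difference was called. Notch1 (ENSMUSG00000026923, chr2:26457903-26516663) was at 7.21, 8.22 and 9.00 TPM in CBPWTp53-floxed, at 6.38, 3.91 and 4.75 TPM in CBPAAp53-floxed, at 3.19, 7.64 and 9.92 TPM in CBPWTp53ΔIEC and at 9.34, 9.99 and 7.75 TPM in CBPAAp53ΔIEC libraries. All 3 CBPAAp53-floxed libraries lay below all CBPWTp53-floxed and all CBPAAp53ΔIEC libraries, and CBPWTp53ΔIEC replicate 1 was lower still. The log2 fold change was -0.59 (SE 0.24, unadjusted p = 0.029, adjusted p = 0.618 from edgeR) between the floxed groups and 0.73 (SE 0.24, unadjusted p = 0.0098, adjusted p = 0.322) between CBPAAp53ΔIEC and CBPAAp53-floxed mice. For CBPWTp53ΔIEC vs. CBPWTp53-floxed mice it was -0.26 (SE 0.24), and 0.01 without CBPWTp53ΔIEC replicate 1, so that library alone set its sign.

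Notch2, the second receptor of the crypt epithelium, was at 58 to 141 reads per library. Notch2 (ENSMUSG00000027878, chr3:98013527-98150361) was at 1.35, 1.69 and 1.72 TPM in CBPWTp53-floxed, at 1.92, 1.31 and 1.04 TPM in CBPAAp53-floxed, at 1.36, 1.80 and 2.21 TPM in CBPWTp53ΔIEC and at 2.32, 2.52 and 1.94 TPM in CBPAAp53ΔIEC libraries. The highest CBPAAp53-floxed library fell just short of the lowest CBPAAp53ΔIEC library, while the libraries of the other 3 comparisons overlapped in TPM. The log2 fold change between these groups was 0.55 (SE 0.18, unadjusted p = 0.0092, adjusted p = 0.322 from edgeR). Notch3 (ENSMUSG00000038146, chr17:32120820-32166852), a receptor best known from pericytes and smooth muscle, was listed between 0.0238 and 0.241 TPM. Its groups overlapped in all 4 comparisons, with p between 0.2 and 1 in two-sided exact permutation tests of mean TPM, for which 3 against 3 libraries allow no p below 0.1.

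Rbpj, which carries the Notch intracellular domain on DNA, differed little between groups. Rbpj (ENSMUSG00000039191, chr5:53466152-53657362) had a mean TPM of 7.16 ± 0.303 in CBPWTp53-floxed, 5.74 ± 1.20 in CBPAAp53-floxed, 6.02 ± 0.787 in CBPWTp53ΔIEC and 7.24 ± 0.194 in CBPAAp53ΔIEC mice (SD, n = 3). The log2 fold changes of the 4 comparisons lay between -0.22 and 0.23 with an SE of 0.11 each, and the smallest adjusted p was 0.295 in edgeR. Rbpj was one of the 4 genes with an unadjusted p under 0.05 for the interaction of CBP genotype and p53 deletion (0.43, SE 0.16, unadjusted p = 0.019, adjusted p = 0.482).

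Hes1, the repressor through which Notch blocks the secretory fate, was the only one of the 9 tested genes above its CBPWTp53-floxed level by an unadjusted p under 0.05 in CBPAAp53-floxed mice. Hes1 (ENSMUSG00000022528, chr16:30064384-30067796, on the chromosome that also holds Crebbp at chr16:4081328-4213997) was at 69.7, 60.0 and 84.3 TPM in CBPWTp53-floxed, at 99.6, 102 and 65.3 TPM in CBPAAp53-floxed, at 71.1, 86.7 and 95.7 TPM in CBPWTp53ΔIEC and at 93.3, 95.0 and 88.5 TPM in CBPAAp53ΔIEC libraries. Replicates 1 and 2 of CBPAAp53-floxed mice were the highest of the 12, while replicate 3 of that group was among the lowest. The log2 fold change between the floxed groups was 0.44 (SE 0.13, unadjusted p = 0.0053, adjusted p = 0.618 from edgeR). It was 0.43 (adjusted p = 0.428) without replicate 1 of CBPAAp53-floxed mice, the library low in Xist, and 0.30 (adjusted p = 0.998) without replicate 2, which was high in Defa24. Averaged over both p53 states, CBPAA minus CBPWT was 0.26 (SE 0.09, unadjusted p = 0.014), with an adjusted p of 1.00. Between CBPAAp53ΔIEC and CBPAAp53-floxed mice it was -0.07 (SE 0.13), opposite in sign to Dll1, Notch1 and Gfi1, though within its error of 0.

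Atoh1, the transcription factor that commits crypt cells to the secretory lineage, showed no difference beyond the spread between replicates. Atoh1 (ENSMUSG00000073043, chr6:64729125-64731245) was at 165, 136 and 179 TPM in CBPWTp53-floxed, at 142, 126 and 119 TPM in CBPAAp53-floxed, at 71.8, 148 and 181 TPM in CBPWTp53ΔIEC and at 147, 141 and 130 TPM in CBPAAp53ΔIEC libraries. CBPWTp53ΔIEC replicate 1 was the lowest by far, and all other libraries lay between 119 and 181 TPM. The log2 fold changes of the 4 comparisons lay between -0.27 and 0.06 with an SE of 0.17 each, and with 768 to 2531 reads per library the limit was not the depth. Gfi1, the factor downstream of ATOH1, had the same order of group means in TPM as Notch1 and Dll1, highest in CBPAAp53ΔIEC and lowest in CBPAAp53-floxed mice. Gfi1 (ENSMUSG00000029275, chr5:107716657-107726036) was at 10.2, 11.0 and 14.9 TPM in CBPWTp53-floxed, at 6.62, 7.02 and 8.67 TPM in CBPAAp53-floxed, at 5.48, 12.5 and 14.1 TPM in CBPWTp53ΔIEC and at 14.2, 18.8 and 11.4 TPM in CBPAAp53ΔIEC libraries. All CBPAAp53-floxed libraries lay below all CBPWTp53-floxed and all CBPAAp53ΔIEC libraries. The log2 fold change was -0.55 (SE 0.26, adjusted p = 0.618 from edgeR) between the floxed groups and 0.84 (SE 0.26, unadjusted p = 0.0060, adjusted p = 0.320) between CBPAAp53ΔIEC and CBPAAp53-floxed mice.

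**Figure D2:**
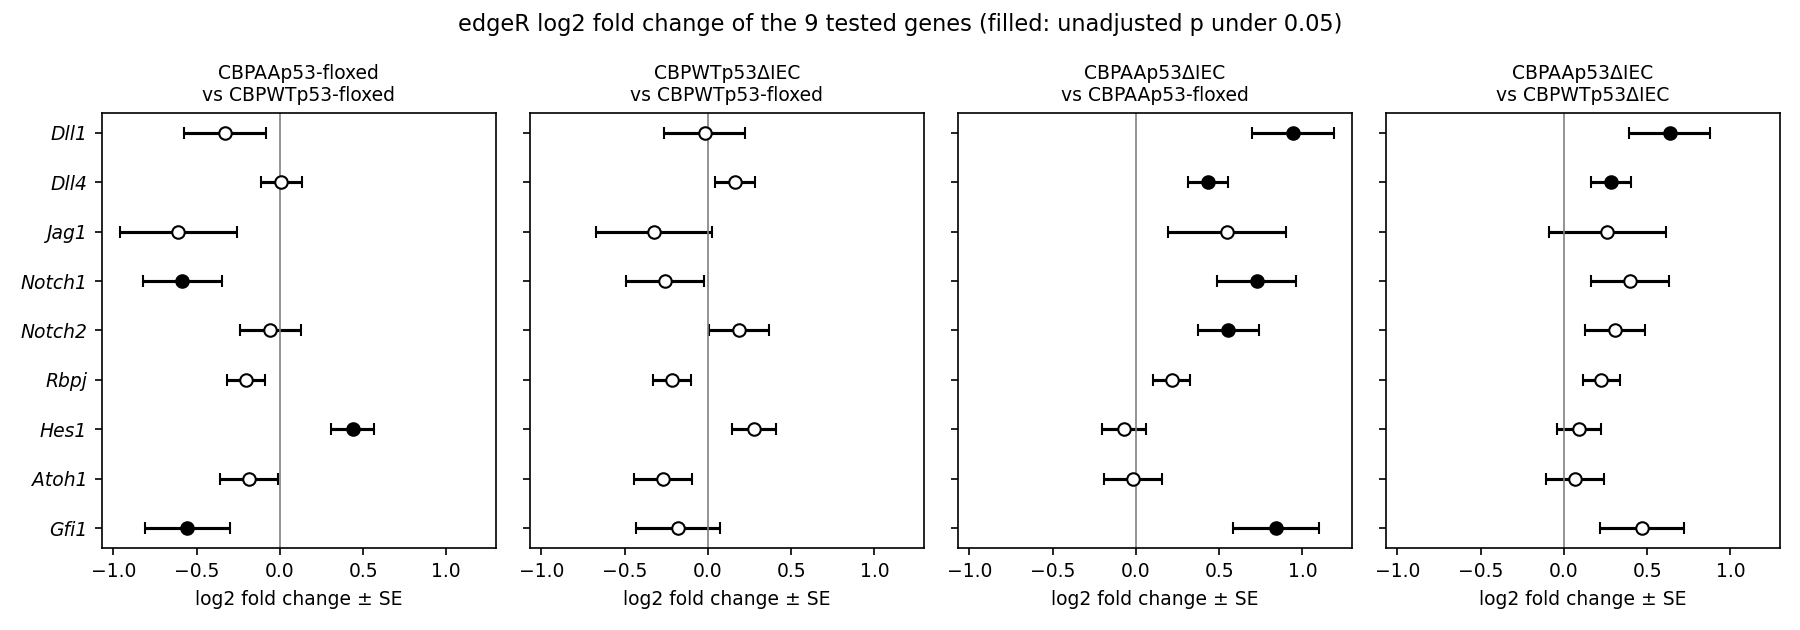
Log2 fold change (horizontal axis) with its SE for the 9 tested genes in the 4 two-group comparisons, from edgeR on all 12 libraries, with filled points for an unadjusted p under 0.05. In CBPAAp53ΔIEC vs. CBPAAp53-floxed mice 7 of 9 genes have values above 0 and Dll1 has the largest, 0.94, while no gene has an adjusted p under 0.05.

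Comparison by comparison, edgeR called none of the 9 tested genes. Between CBPAAp53-floxed and CBPWTp53-floxed mice, where 0% of the 14610 genes were called, 3 genes had an unadjusted p under 0.05 (Hes1, Notch1 and Gfi1) against 8.04% of all genes, DESeq2 called 0 of the 9 against 0.233%, and the libraries of 4 genes (Notch1, Jag1, Gfi1 and Rbpj) lay lower without overlap in CPM, the counts scaled to library size, against 9.62% of all genes, though Rbpj overlapped in TPM. Between CBPWTp53ΔIEC and CBPWTp53-floxed mice, where 3.15% of genes were called, no member had an unadjusted p under 0.05 against 20.9% of all genes, DESeq2 called 0 against 5.96%, and 1 gene was higher (Hes1) and 1 lower (Rbpj) without overlap in CPM, against 16.1% and 14.7%, and of these Rbpj alone did not overlap in TPM. Between CBPAAp53ΔIEC and CBPAAp53-floxed mice, where 0.0274% were called, 5 genes had an unadjusted p under 0.05 (Dll1, Dll4, Gfi1, Notch2 and Notch1) against 12.6% of all genes. The same 5 genes were higher without overlap in CPM, against 7.86% of all genes, and the median log2 fold change of the 9 was 0.55 against 0.01 over all genes. DESeq2 called 1 of the 9, Dll1, against 0.513% of all genes.

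Between CBPAAp53ΔIEC and CBPWTp53ΔIEC mice, where 0.00684% of genes were called, all 9 log2 fold changes lay above 0, with a median of 0.28 against -0.01 over all genes. Unadjusted p-values were under 0.05 for Dll1 and Dll4, 2 of 9 against 3.57% of all genes, DESeq2 called 0 of the 9 against 0.0137%, and 4 genes were higher without overlap in CPM (Notch2, Dll4, Rbpj and Hes1) against 4.76%, of which Rbpj alone did not overlap in TPM. The interaction of CBP genotype and p53 deletion, in which the p53 difference of CBPAA mice is set against that of CBPWT mice, called none of the 9 with either tool, where 0.00684% of genes were called by edgeR and 0.205% by DESeq2. It had an unadjusted p under 0.05 for Notch1 (0.98, SE 0.33), Dll1 (0.96, SE 0.35), Gfi1 (1.02, SE 0.36) and Rbpj, 4 of 9 against 10.3% of all genes, with an adjusted p of 0.482 for each. A different response to p53 deletion in the 2 CBP genotypes was therefore not shown for any gene of the set. For p53 deletion averaged over both CBP genotypes, where 3.5% of genes were called, 3 genes had an unadjusted p under 0.05 (Dll4, Notch2 and Dll1) against 21.9%, and DESeq2 called 0 against 5.27%. For CBP genotype averaged over both p53 states, where 0.00684% were called, 1 gene, Hes1, had an unadjusted p under 0.05 against 2.57%, and DESeq2 called 0 against 0.0342%. The comparisons share groups, so their values for a gene are not independent of each other.

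Much of the spread within groups followed single libraries. In CBPWTp53ΔIEC replicate 1, 7 of the 9 genes lay below their mean over 12 libraries, with a median deviation of -0.56 in log2 CPM. CBPAAp53-floxed replicates 2 and 3 had 8 of 9 genes below the mean each, whereas CBPAAp53ΔIEC replicate 1 had 0 of 9 and replicate 2 was the highest library for 5 of 9. Across the 12 libraries, log2 CPM of Notch1 correlated with that of Jag1 at Pearson's r of 0.898, Dll1 at 0.865 and Gfi1 at 0.853, and 8 of the 36 pairs of genes had r above 0.7. Pairs with Hes1 lay between -0.450 (Rbpj) and 0.272 (Notch2), and Hes1 with Atoh1 was at -0.175. These values describe 12 libraries that share groups and depth, and carry no test. For the counts of genes per library and of pairs, no share over all genes was computed, so they are not read as particular to the set.

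**Figure D3:**
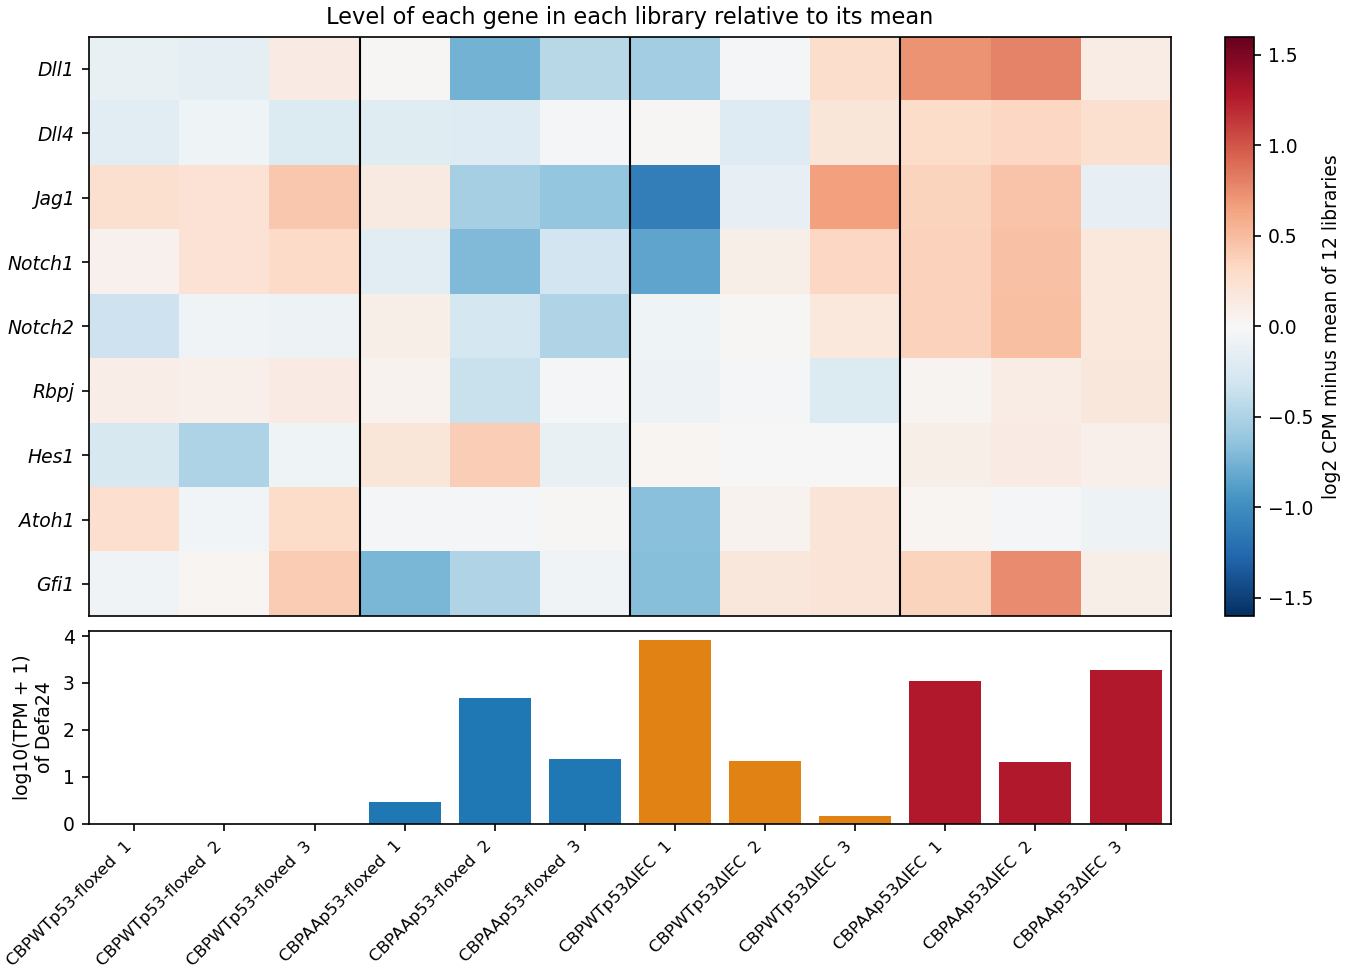
Upper panel, log2 CPM of each of the 9 tested genes in each library minus the mean of that gene over 12 libraries (red above, blue below), with groups divided by black lines; lower panel, Defa24 as log10(TPM + 1) in the same libraries. CBPWTp53ΔIEC replicate 1, with Defa24 at 8290 TPM, is blue for Jag1, Notch1, Atoh1, Gfi1 and Dll1, and CBPAAp53ΔIEC replicates 1 and 2 are red for most genes.

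Leaving out libraries with foreign transcripts changed the calls. This alternative was chosen after seeing the data. CBPWTp53ΔIEC replicate 1 and CBPAAp53ΔIEC replicate 3 also had the lowest summed TPM of the 22 proliferation genes in their groups. It was 411 TPM against 906 and 954 TPM in the former group, and 295 TPM against 751 and 727 TPM in the latter. Which trait of these libraries the changed calls follow was not tested. Without CBPWTp53ΔIEC replicate 1 and CBPAAp53ΔIEC replicate 3, the 2 highest in Defa24, edgeR called 3 of the 9 genes between CBPAAp53ΔIEC and CBPAAp53-floxed mice against 8.12% of all genes, and Dll1 (1.13, adjusted p = 0.0028), Gfi1 (0.98, adjusted p = 0.0076) and Notch1 (0.81, adjusted p = 0.0038) rose in that fit. Without all 4 libraries above 100 TPM of Defa24, which leaves 1 CBPAAp53ΔIEC library that is assumed to vary like the other groups, the same 3 genes were called against 6.92%, at log2 fold changes of 0.99, 1.14 and 0.71 (adjusted p = 0.00715, 0.0109 and 0.00442). In both fits 0 of the 9 were called for the interaction, against 0% and 0.23% of all genes, and 0 of the 9 for CBPWTp53ΔIEC vs. CBPWTp53-floxed, against 9.23% and 11.4%. Likewise 0 of the 9 were called between the floxed groups (0.0808% and 0.276% of all genes), between the ΔIEC groups (0% and 0.0526%) and for CBP genotype averaged over both p53 states (0.00674% and 0.00658%). For p53 deletion averaged over both CBP genotypes, Dll1 and Gfi1 were called in both fits, against 11.4% and 11.1% of all genes, and Dll1 alone was called without CBPWTp53ΔIEC replicate 1 or without CBPAAp53ΔIEC replicate 3, against 7.18% and 6.52%. Between the floxed groups, the fit without 4 gave -0.45 for Notch1, -0.49 for Jag1, -0.53 for Gfi1 and 0.31 for Hes1. Without CBPAAp53-floxed replicate 1, low in Xist, log2 fold changes were -0.70 for Notch1, -0.89 for Jag1 and -0.41 for Gfi1 between the floxed groups, and 0.84 for Notch1, 0.73 for Notch2, 0.70 for Gfi1 and 0.41 for Dll4 between CBPAAp53ΔIEC and CBPAAp53-floxed mice, none of them called. The source of the foreign transcripts and its part in the values of the set were not tested.

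**Figure D4:**
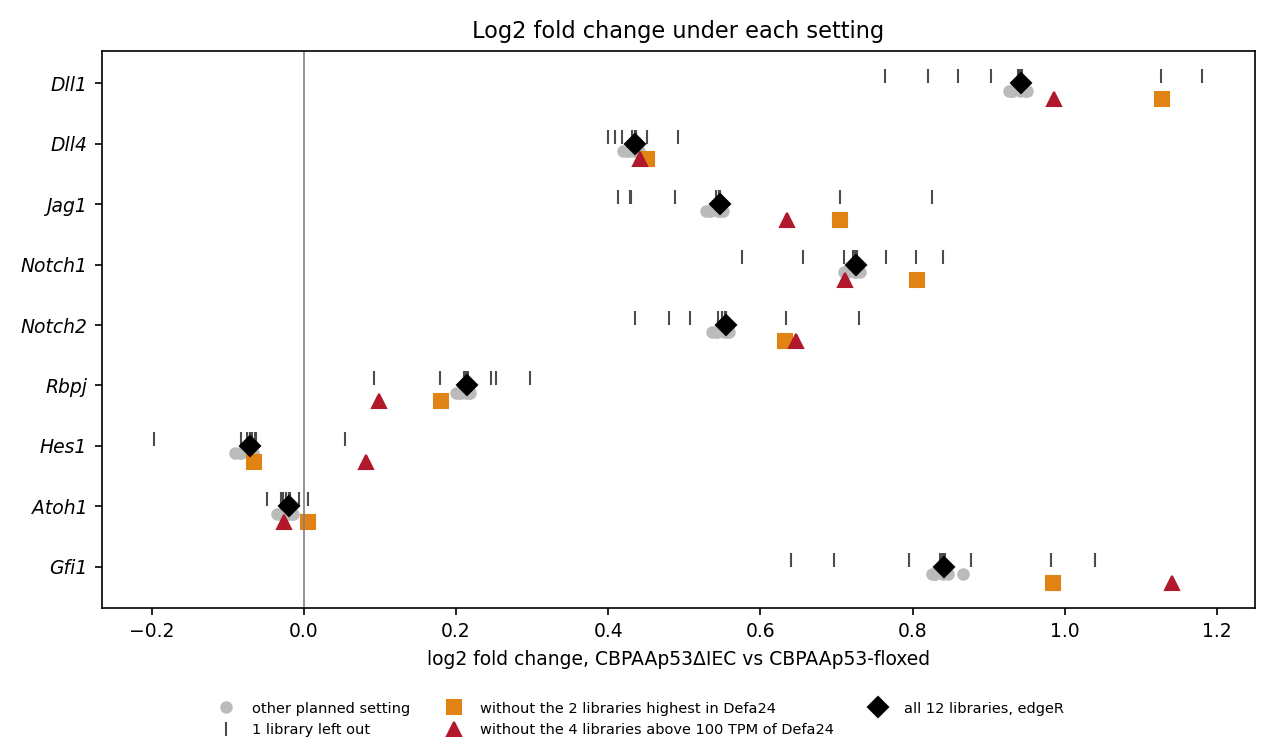
Log2 fold change of CBPAAp53ΔIEC vs. CBPAAp53-floxed (horizontal axis) for the 9 tested genes under each setting, as given in the legend. Dll1 stays between 0.76 and 1.18 and Atoh1 between -0.05 and 0.01 when 1 library is left out at a time.

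Genes around the set were read from lists of the pathway and of secretory cells. Of 69 other Notch pathway genes, 57 were tested, and 1, Nrarp, was called in any comparison. Nrarp (ENSMUSG00000078202, chr2:25180758-25183339) was at 20.6, 17.3 and 21.2 TPM in CBPWTp53-floxed, at 22.4, 20.0 and 22.6 TPM in CBPAAp53-floxed, at 27.5, 32.5 and 40.1 TPM in CBPWTp53ΔIEC and at 36.3, 31.3 and 19.8 TPM in CBPAAp53ΔIEC libraries. All CBPWTp53ΔIEC libraries lay above all floxed libraries, and CBPAAp53ΔIEC replicate 3 lay among the floxed ones. Nrarp rose in CBPWTp53ΔIEC vs. CBPWTp53-floxed mice by a log2 fold change of 0.79 (SE 0.18, adjusted p = 0.0342 from edgeR), but the call was lost without any 1 of the CBPWTp53-floxed replicates (adjusted p up to 0.155) and without CBPWTp53ΔIEC replicate 2 or 3, while the log2 fold change stayed between 0.70 and 0.83. For p53 deletion averaged over both CBP genotypes the value was 0.53 (SE 0.12, adjusted p = 0.0282), a call also lost without most single libraries (adjusted p up to 0.0847). In CBPAA mice alone it was 0.28 (SE 0.17, adjusted p = 0.494), with an interaction of -0.50 (SE 0.25, adjusted p = 0.498) that was not called.

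The other pathway genes are given by role. In CBPWTp53ΔIEC vs. CBPWTp53-floxed mice edgeR called 0 of 3 tested other ligands and receptors, 0 of 24 genes of ligand and receptor processing, 0 of 21 of the transcription complex and its cofactors and 1 of 9 targets, against 3.15% of all genes, a share at which lists of this size would hold few calls or none. In the other 3 two-group comparisons it called 0 of each. Of the 9 targets, 7 lay above 0 between the floxed groups (median 0.15 against 0.01 over all genes). Between CBPAAp53ΔIEC and CBPAAp53-floxed mice 4 of the 9 did (median -0.07 against 0.01). Of these targets, Olfm4 was at 9.53 TPM in CBPAAp53-floxed replicate 2, high in Defa24, and at 0.204 and 0.0653 TPM in replicates 1 and 3. Klf4 is listed both here and among the secretory factors. The γ-secretase subunits Psenen and Ncstn had the highest TPM of the processing genes, 125 ± 3.36 and 126 ± 13.6 (SD, n = 3) in CBPWTp53-floxed mice, and their log2 fold changes in the 4 comparisons lay between -0.23 and 0.20. Ep300, the acetyltransferase p300, had a log2 fold change of -0.46 (SE 0.18) between the floxed groups and of -0.51 (SE 0.18) between CBPWTp53ΔIEC and CBPWTp53-floxed mice, with adjusted p of 0.618 and 0.126. Crebbp itself was at 9.54 ± 1.73, 8.02 ± 1.48, 7.75 ± 1.86 and 9.30 ± 0.915 TPM (SD, n = 3) in the 4 groups, in the order named at the start.

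**Figure D5:**
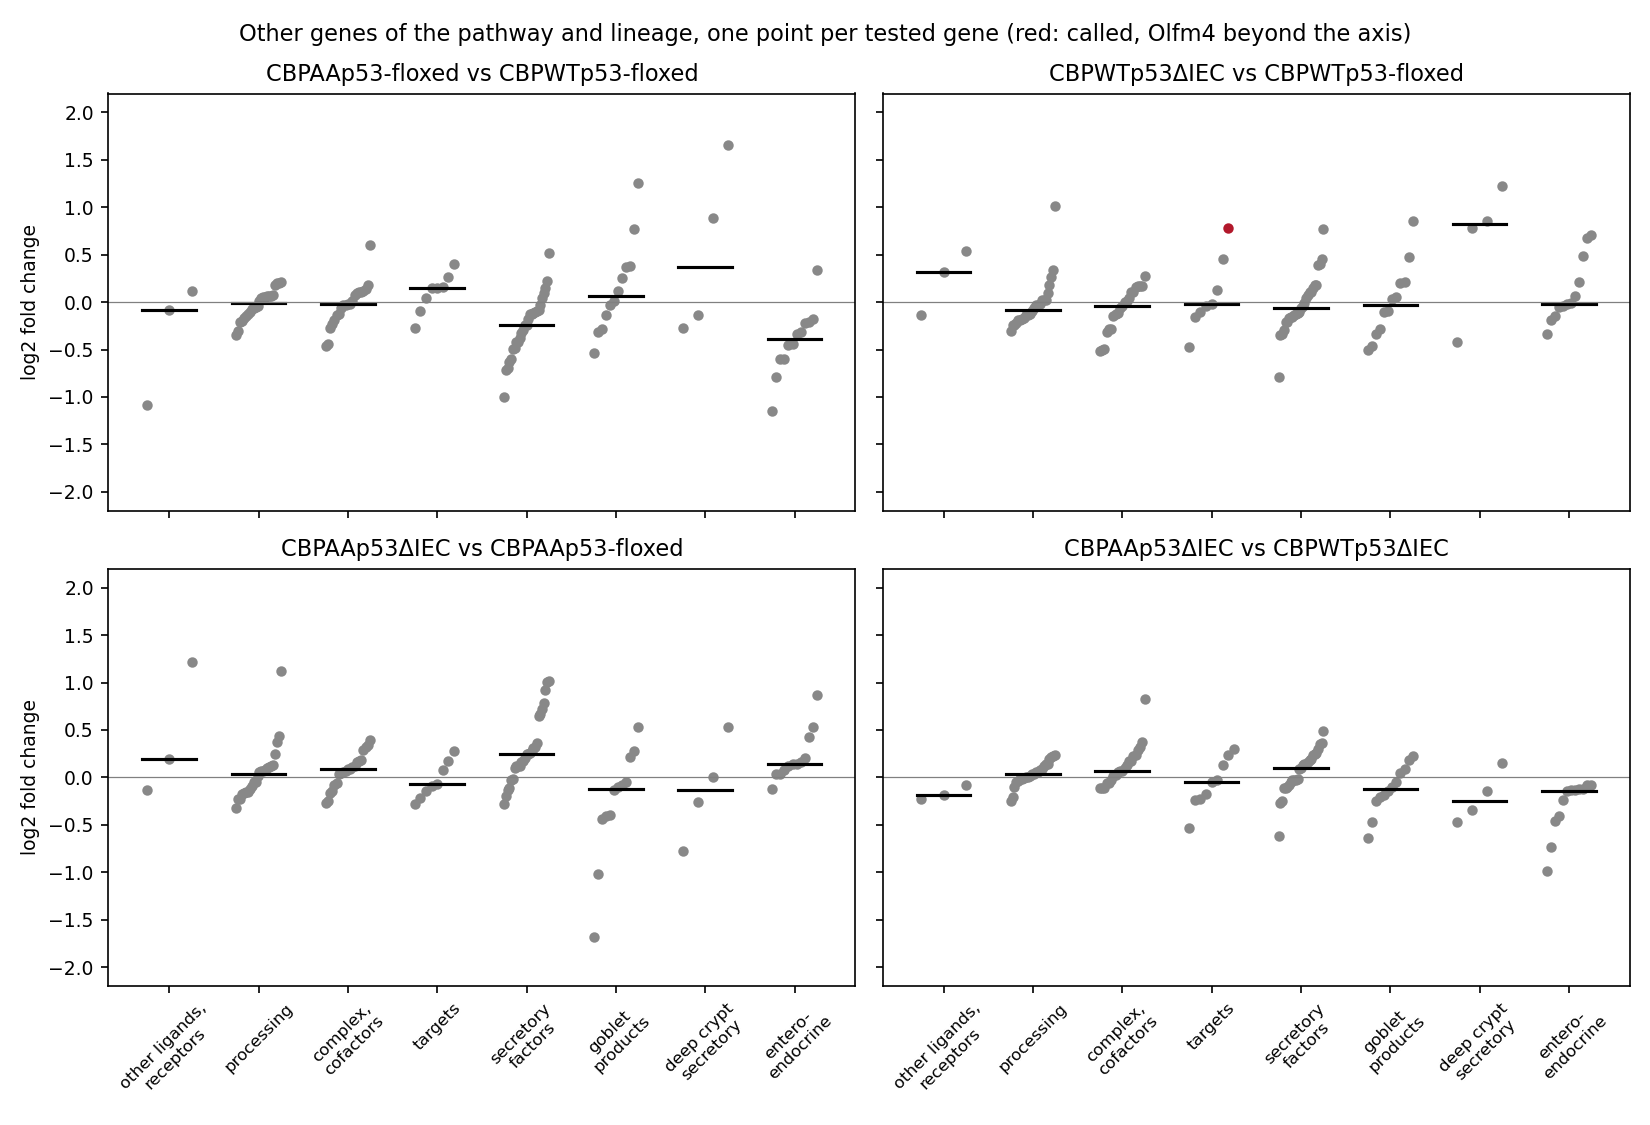
Log2 fold change (vertical axis) of each tested gene of the 4 other Notch pathway lists and the 4 secretory lists, without the 10 genes of the set, in the 4 two-group comparisons, with black bars for list medians and red for called genes. Nrarp at 0.79 is the single red point, Olfm4 lies beyond the axis in 3 of the panels, and the secretory factors have their lowest median in CBPAAp53-floxed vs. CBPWTp53-floxed mice.

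Of 58 secretory genes outside the set, 54 were tested and edgeR called 0 in all 7 comparisons. The share of all genes called ran from 0% between the floxed groups to 3.5% for p53 deletion averaged over both CBP genotypes. At these shares 54 genes would hold few calls or none. Among the lineage factors, 22 of 27 had log2 fold changes below 0 between CBPAAp53-floxed and CBPWTp53-floxed mice, with a median of -0.24 against 0.01 over all genes, and 21 of 27 lay above 0 between CBPAAp53ΔIEC and CBPAAp53-floxed mice, with a median of 0.25. These 2 comparisons share the CBPAAp53-floxed libraries. Neurod1, an enteroendocrine factor, and Cbfa2t3, a corepressor known to act in secretory commitment, were named after their values were seen. Neurod1 was at 4.18 to 4.83 TPM in CBPWTp53-floxed, at 1.56 to 2.59 TPM in CBPAAp53-floxed, at 2.62 to 4.22 TPM in CBPWTp53ΔIEC and at 3.68 to 5.58 TPM in CBPAAp53ΔIEC libraries. The floxed CBPAA group lay below all other groups without overlap, with a log2 fold change of -1.003 (SE 0.23, adjusted p = 0.575 from edgeR) against CBPWTp53-floxed mice, and CBPAAp53ΔIEC mice differed from it by 1.01 (SE 0.23, adjusted p = 0.320). Cbfa2t3 was at 8.86 to 10.4 TPM in CBPAAp53-floxed and at 13.8 to 22.3 TPM in CBPAAp53ΔIEC libraries, which did not overlap, at a log2 fold change of 0.78 (SE 0.16, adjusted p = 0.271). For p53 deletion averaged over both CBP genotypes the value of Cbfa2t3 was 0.47 with an adjusted p of 0.0296, short of the fold cutoff. Kit, a deep crypt secretory marker also named after its values were seen, was likewise short of it at -0.42 (adjusted p = 0.0365) between CBPWTp53ΔIEC and CBPWTp53-floxed mice. Its list went the other way in that comparison. There 4 of the 6 markers lay above 0 (median 0.47), with Reg4 at 1.22 (SE 0.51) and Agr2 at 0.86 (SE 0.36), and 0 were called.

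Products of mature secretory cells were read from lists of their own. EdgeR called 0% of all genes between the floxed groups, 0.0274% between CBPAAp53ΔIEC and CBPAAp53-floxed mice and 0.00684% between the ΔIEC groups. For CBP genotype averaged over both p53 states it called 0.00684%, and for CBPWTp53ΔIEC vs. CBPWTp53-floxed mice 3.15%. Lists of this size would hold few calls or none at these shares. Goblet cell products had a median log2 fold change of 0.07 between the floxed groups and -0.12 between CBPAAp53ΔIEC and CBPAAp53-floxed mice, with 0 of 12 called in each. Enteroendocrine products lay below 0 for 11 of 12 genes between the floxed groups (median -0.38) and above 0 for 11 of 12 between CBPAAp53ΔIEC and CBPAAp53-floxed mice (median 0.14), again with 0 called. They also lay below 0 for 12 of 12 genes between CBPAAp53ΔIEC and CBPWTp53ΔIEC mice (median -0.14) and for 11 of 12 for CBP genotype averaged over both p53 states (median -0.28), with 0 called. Deep crypt secretory markers, of which Dll1 and Dll4 are 2 of the 6, had a median of -0.06 between the floxed groups. There 3 lay above 0 and 3 below, with Reg4 at 1.65 (SE 0.52), Spink4 at 0.89 (SE 0.39) and Kit at -0.27 (SE 0.10), and 0 were called. Between CBPAAp53ΔIEC and CBPAAp53-floxed mice their median was 0.22. Their most abundant members, Agr2 and Reg4, had log2 fold changes of 0.53 (SE 0.36) and -0.78 (SE 0.50) in this comparison. Tuft cell markers had 0 of 10 and stem cell markers 0 of 13 called in all 4 two-group comparisons, and 1 of 12 absorptive colonocyte markers, Saa1, fell in CBPWTp53ΔIEC vs. CBPWTp53-floxed mice (log2 fold change -1.22, adjusted p = 0.0405 from edgeR).

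Other cell types and states were measured beside the set. Endothelial cells and pericytes also use DLL4, JAG1, NOTCH1 and NOTCH3. Of 12 endothelial markers 4 passed the filter, and the list summed to between 6.04 and 7.72 TPM with overlap of all groups. Cdh5 was at 0 in all libraries and Kdr, Flt1 and Emcn at 0.0372 TPM or less, while Pecam1 was at 0.466 to 1.28 TPM. Of 14 stromal and pericyte markers 3 passed, with Rgs5 at 0 in all libraries but Pdgfrb at 1.81 to 6.49 TPM. Pdgfrb fell in CBPWTp53ΔIEC vs. CBPWTp53-floxed mice (log2 fold change -0.97, adjusted p = 0.0344 from edgeR). The summed TPM of the stromal list was 9.27 to 10.3 in CBPWTp53-floxed, 5.39 to 9.39 in CBPAAp53-floxed, 5.13 to 7.14 in CBPWTp53ΔIEC and 6.47 to 7.61 in CBPAAp53ΔIEC libraries. Leukocyte markers (11 of 18 tested) summed to between 11.1 and 33.5 TPM, and epithelial markers (10 of 10) to between 12666 and 18423 TPM. Small intestinal enterocyte markers summed to between 868 and 7282 TPM and Paneth cell markers to between 364 and 25097 TPM. The Paneth sum did not order the libraries as Defa24 alone did. It was 12042.5 TPM in CBPAAp53-floxed replicate 3, which was low in Defa24. In libraries high in Defa24 it was 10485 and 5094 TPM (CBPAAp53ΔIEC replicates 3 and 1) and 4304 TPM (CBPAAp53-floxed replicate 2). Of the proliferation genes, 19 of 22 were called higher in CBPWTp53ΔIEC vs. CBPWTp53-floxed mice (2.29% of all genes were). In CBPAAp53ΔIEC vs. CBPAAp53-floxed mice 0 of 22 were called higher, where 0% of all genes were. All 22 had log2 fold changes above 0 there (median 1.32), so the 2 counts do not show a difference between the CBP genotypes. Targets of p53 were called lower for 5 and 2 of 13 genes in these comparisons, against 0.856% and 0.0274% of all genes. The part of these cell types and states in the values of the Notch genes was not tested.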

How the data were processed

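RNA of colonic crypts released with EDTA was sequenced from 12 libraries (stranded TruSeq mRNA kit per the labels). According to the submitters' processing notes, which give no order or role, fastp 0.20.0, FastQC 0.11.9, HISAT2 2.1.0, SAMtools 1.9 and featureCounts of Subread 2.0.1 were used with GRCm38. The deposited table holds unnormalized counts of reads for each gene, TPM that the authors scaled to an equal total per library, and columns with the authors' fold changes and p-values, which were left unused. Groups come from the sample titles.

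EdgeR 4.0.16 in R 4.3.3 fitted 4 groups over 12 libraries by robust quasi-likelihood, after TMM scaling and filterByExpr (count of at least 10), and p-values were adjusted by Benjamini-Hochberg over 14610 genes. Called genes had an adjusted p below 0.05 together with a log2 fold change beyond 0.5 either way. SE was derived from the F statistic. Notch3, below the filter, was compared with exact permutation tests on TPM. CPM used TMM factors and, for log2 CPM, a prior count of 2. Positions are from GENCODE vM21 of GRCm38. The fit was tested on simulated data. Alternatives were DESeq2 1.42.0, its size factors in edgeR, other filters, the groups compared only, the replicate block, no fold cutoff, each library left out and, chosen after seeing the data, 2 fits without libraries high in Defa24. Between replicates, log2 CPM correlated across genes at Pearson's r of 0.952 to 0.992. EdgeR's p-values set differences of group means against the spread between these libraries, estimated over all groups with information shared across genes.

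The 10 genes, the lists and the tests were chosen with earlier results of these data known. Genes named were the 10, Trp53 and Crebbp, from each list those called in a two-group comparison (at most 5) and the 2 with the highest mean TPM, and for each tested gene the 1 with the most similar log2 CPM over 12 libraries. Neurod1, Cbfa2t3, Kit, Spink4, Ep300, Olfm4, the cell type markers and the sex-linked genes were named outside this rule. Figures were drawn with matplotlib 3.10.9.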

Additional observations from a re-analysis of the deposited data

How the results depend on the processing

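Of 1233 alternative values of the 63 log2 fold changes of the set, 1175 kept their direction and their side of the threshold, 44 changed sign, none of which was called, and 14 newly passed the threshold. With DESeq2, 1 of the 9 genes (Dll1) was called in CBPAAp53ΔIEC vs. CBPAAp53-floxed. When 1 library was left out, the count there ran from 0 to 1 (Dll1, without CBPAAp53ΔIEC replicate 3), and for p53 deletion averaged over both CBP genotypes from 0 to 1 (Dll1, without CBPWTp53ΔIEC replicate 1 or CBPAAp53ΔIEC replicate 3). The 2 fits without libraries high in Defa24 each gave 3 called genes (Dll1, Gfi1 and Notch1) in the first and 2 (Dll1 and Gfi1) in the second of these comparisons. In the other 5 comparisons the count was 0 under every alternative run. The cause was not tested.

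Signs turned for values near 0. Without the 2 and the 4 libraries high in Defa24, respectively, CBPWTp53ΔIEC vs. CBPWTp53-floxed gave 0.0083 and 0.0063 for Notch1, 0.16 and 0.16 for Dll1 and 0.044 and 0.041 for Gfi1, and CBPAAp53ΔIEC vs. CBPWTp53ΔIEC gave -0.13 and -0.16 for Atoh1. The fit without 2 gave 0.0057 for Atoh1 in CBPAAp53ΔIEC vs. CBPAAp53-floxed and -0.0010 for Rbpj in CBP genotype averaged over both p53 states, and the fit without 4 gave 0.082 for Hes1 and 0.019 for Gfi1 in these comparisons. Rbpj for p53 deletion averaged over both CBP genotypes was at 0.0012 with at least 10 counts in every sample. With 1 library left out at a time, signs turned for 18 log2 fold changes. For CBPWTp53ΔIEC vs CBPWTp53-floxed they ran Notch1 -0.49 to 0.0084, Dll1 -0.23 to 0.17, Jag1 -0.84 to 5.5e-06 and Gfi1 -0.32 to 0.045. For CBPAAp53-floxed vs CBPWTp53-floxed they ran Notch2 -0.23 to 0.059 and Dll4 -0.049 to 0.052. For CBPAAp53ΔIEC vs CBPAAp53-floxed they ran Hes1 -0.20 to 0.054 and Atoh1 -0.048 to 0.0060. For CBPAAp53ΔIEC vs CBPWTp53ΔIEC they ran Jag1 -0.065 to 0.78 and Atoh1 -0.15 to 0.24. For p53 deletion averaged over both CBP genotypes they ran Jag1 -0.15 to 0.27 and Rbpj -0.069 to 0.041. For CBP genotype averaged over both p53 states they ran Notch1 -0.23 to 0.023, Jag1 -0.34 to 0.084, Rbpj -0.032 to 0.069, Atoh1 -0.17 to 0.025, Gfi1 -0.16 to 0.033 and Nrarp -0.072 to 0.12. Groups of 3 libraries limit all these values, and low counts limit Notch3.

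Replicate numbers did not pair the libraries. Deviations of same-numbered libraries correlated above 0.1 in 1 of 12 pairs (-0.53 to 0.55), and 3 of 12 libraries correlated best with their own number. With the replicate block 0 of the 9 genes were called in all 7 comparisons, Dll1 was at 0.95 (adjusted p = 0.483 from edgeR) in CBPAAp53ΔIEC vs. CBPAAp53-floxed, Rbpj for p53 deletion averaged over both CBP genotypes was at 0.0016, and Nrarp was no longer called in CBPWTp53ΔIEC vs. CBPWTp53-floxed (0.79, adjusted p = 0.0653) or for p53 deletion averaged over both CBP genotypes (0.53, adjusted p = 0.0610).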

Other observations

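For each tested gene, the gene most like it in log2 CPM over the 12 libraries was sought among all tested genes. Notch1 was most like Zfc3h1 (Pearson's r = 0.967), Notch2 most like Mx2 (0.918), Dll1 most like Bicd2 (0.933), Dll4 most like 1700034H15Rik (0.892) and Jag1 most like Mdm2 (0.946). Rbpj was most like Eloa (0.917), Hes1 most like Mapk7 (0.901), Atoh1 most like Gm29008 (0.910) and Gfi1 most like Wdr82 (0.918). No gene of the set had another gene of the set as its closest match. These are the highest of many values over 12 libraries and are given as a description without a test.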
